A study of Homo sapiens with 26 samples.

Results

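The genes described here are the 8 keratin genes KRT5, KRT14, KRT15, KRT17, KRT6A, KRT6B, KRT6C and KRT16, taken by symbol from 26485 gene symbols. They were followed by mRNA-seq in 26 libraries of 3 established human esophageal squamous cell carcinoma (ESCC) lines, KYSE180, TE6 and KYSE150. KYSE180 was transfected with a non-targeting siRNA (siCont, 3 libraries) or an siRNA against BRDT (siBRDT, 3), and in another experiment with siCont (2) or an siRNA against TP63 (siTP63, 2). TE6 received siCont, siBRDT or siTP63 (2 libraries each, in 1 experiment), and KYSE150 received siCont or siTP63 (2 each). All siRNA cells were collected after 48 h. KYSE150 was also electroporated with a BRDT plasmid (BRDT-OE, 3) or handled as control cells (3), for which the study's methods name the empty vector pCDNA5/TO. Each group is 1 line, and no source used here says that replicate libraries came from separate cultures, so p-values measure only the spread between these libraries, which may be technical.

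Keratins are the intermediate filament proteins of epithelial cells, and every filament is built from pairs of an acidic type I and a basic type II chain. KRT5 (type II) and KRT14 (type I) are the pair of the dividing basal layer of the esophagus and other stratified epithelia, and KRT15 is a further basal type I chain. KRT6A, KRT6B and KRT6C (type II) with KRT16 and KRT17 (type I) are known as stress keratins, since wounding and other injury switch them on. TP63 encodes p63, the transcription factor that sets up squamous identity, and BRDT encodes a bromodomain protein that is normally made in male germ cells.

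Per GENCODE release 44 on hg38, the type II genes lie in the keratin cluster of chromosome 12 and the type I genes in that of chromosome 17, all on the minus strand. KRT5 spans chr12:52514575-52520530, KRT6A chr12:52487176-52493257, KRT6C chr12:52468516-52473805 and KRT6B chr12:52446651-52452146, each with 9 exons. KRT14 spans chr17:41582279-41586895, KRT15 chr17:41513745-41522529, KRT16 chr17:41609778-41615899 and KRT17 chr17:41619442-41624842, each with 8 exons. KRT15 overlaps MIR6510 on its own strand and KRT17 a lncRNA on the other strand, and whether the authors' counting used strand was not stated.

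The knockdown reagents are shown because every siRNA comparison rests on them. They are the sense strands listed in the study's supplement, 5′ to 3′, and the capitals mark the 7 bases that pair with the seed (bases 2 to 8) of the guide strand. Which of them were used or pooled for the libraries was not stated.
Non-targeting siRNA #5, control: ugguuuacaugUCGACUAa
BRDT #2, coding exon 2 of BRDT, chr1:91962840-91962858: caaaucaacuuCAGUAUCu
BRDT #3, coding exon 7 of BRDT, chr1:91978170-91978188: gaaaauggauaACCAAGAa
BRDT #4, coding exon 8 of BRDT, chr1:91979663-91979681: guagagagaacACUAAUGa
BRDT #18, coding exon 10 of BRDT, chr1:91981008-91981026: gagauaaacuuGGGCGAGu
TP63 #5, coding exon 13 of TP63, chr3:189890812-189890830: caucaugucugGACUAUUu
TP63 #8, coding exon 7 of TP63, chr3:189867849-189867867: cgacagucuugUACAAUUu

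These sites are full matches to GENCODE transcripts, on the plus strand of hg38. TP63 #8 matched 11 of 12 coding transcripts of TP63 and TP63 #5 matched 5 of 12. None of the 8 keratin transcripts searched held a full match. The closest was BRDT #2, of which 15 of 19 bases matched KRT14, and its seed site also occurs in the 3′ UTR of KRT6A, as in 7.61% of 19061 3′ UTRs. The part of these matches in the values of KRT14 and KRT6A was not tested.

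Reads of these genes can be hard to tell apart, which is why the next stretches are shown. In their coding sequences KRT6A, KRT6B and KRT6C share 1 identical run of 269 bases, and KRT14 and KRT16 share 1 of 158 bases. Each line gives the last 20 bases of the run and the 60 bases after it, with capitals where the compared genes differ.
KRT6A: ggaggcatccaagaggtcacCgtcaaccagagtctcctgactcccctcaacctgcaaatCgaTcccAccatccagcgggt
KRT6B: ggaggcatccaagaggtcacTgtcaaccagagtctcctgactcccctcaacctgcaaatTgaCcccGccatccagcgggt
KRT6C: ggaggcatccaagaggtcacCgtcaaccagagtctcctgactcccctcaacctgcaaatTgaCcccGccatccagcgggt
KRT14: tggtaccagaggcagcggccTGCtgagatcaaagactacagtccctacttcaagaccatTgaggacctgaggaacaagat
KRT16: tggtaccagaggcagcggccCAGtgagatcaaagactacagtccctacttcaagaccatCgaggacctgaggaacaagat

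Over whole transcripts, 53.1% of the 50-base windows of KRT6C, 46.6% of KRT6B and 39.2% of KRT6A also occurred in another keratin gene or pseudogene. For KRT14 the share was 21.7%, for KRT16 21.8% and for KRT17 14.6%, against 4.52% for KRT5 and 1.02% for KRT15. How reads with several matches were counted was not stated, so the levels of KRT6B, KRT6C and KRT16, which are low beside those of their copies, are uncertain.

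Depth ranged from 7582089 to 19372441 reads per library. Of 7 squamous marker genes, all reached 1 RPM (a read share relative to library depth) in KYSE180 and TE6 and 6 did in KYSE150, where SOX2 stayed under it. The leukocyte genes PTPRC, CD3E and CD79A, the endothelial gene PECAM1 and the fibroblast genes DCN and PDGFRB were under 1 RPM in every library. Other genes of these lists were not, with 2 to 4 of 6 fibroblast genes at 1 RPM or more by line (summed level 36.1 to 120 RPM in KYSE180, 24.5 to 31.6 in TE6 and 3.8 to 10.4 in KYSE150) and 1 to 2 of 3 endothelial genes (up to 12.1 RPM). The leukocyte gene LYZ reached 1 RPM in KYSE180 (list up to 3.87 RPM), as did 2 of 5 columnar gut genes there (19.2 to 32.2 RPM) and 3 of 5 in TE6 (6.43 to 10 RPM). Their part in the keratin values was not tested. The KYSE150 siTP63 replicates stood furthest apart of all replicate pairs (chi-square per gene 64.1), followed by the KYSE150 siCont replicates (35.4), against 1.84 to 25 elsewhere. For KYSE150 siTP63 the values without single libraries are therefore given too.

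In control cells the 3 lines used these genes differently. Levels per length were compared as RPKM, recovered reads scaled to transcript length and library size. In KYSE180, KRT5 was highest, at 1987 to 2227 RPKM in the BRDT experiment and 1736 to 1744 in the TP63 experiment, followed by KRT14 at 470 to 555 and 1134 to 1298. In TE6, KRT6A (1287 to 1292) and KRT17 (1199 to 1332) came first with overlapping ranges, then KRT15 (818 to 891), KRT5 (602 to 631) and KRT14 (169 to 179). KRT6A and KRT17 thus stood above the basal pair in TE6, and the basal pair stood above them in KYSE180.

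In KYSE150 KRT5 led as well, at 326 to 405 RPKM in siCont cells, below both other lines, and was followed by KRT15 (158 to 194) and KRT17 (37.4 to 67.2). KRT14, KRT6A and KRT16 lay between 3.55 and 8.67 RPKM in those cells, with ranges that overlapped from one gene to the next. KRT6B had 2 and 0 reads and KRT6C 0 and 0 reads in the siCont libraries, where a count of 0 allows up to 3 reads, equal to 0.259 and 0.239 RPM by counting error. In every line KRT16, KRT6B and KRT6C took the bottom places, with means from 0 to 16.3 RPKM.

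**Figure D1:**
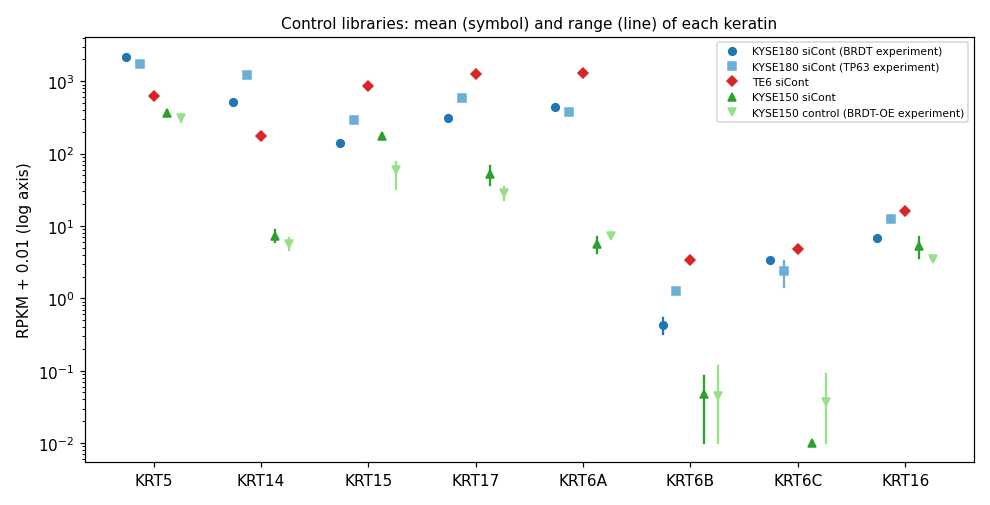
Level of each keratin gene in control libraries, in RPKM plus 0.01 on a log axis, as the mean (symbol) and range (line) of each of the 5 control groups. KRT14 lies at 521 RPKM or above in KYSE180 and at 7.35 or below in KYSE150, and KRT6A at 1290 in TE6.

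The control groups of the same line also differed between experiments, which were normalised separately. KRT14 had a mean of 521 RPKM in one set of KYSE180 siCont libraries and 1216 in the other, KRT17 314 and 593, and KRT15 139 and 293, while KRT5 was at 2135 and 1740. TP63 itself was at 33.6 RPKM in the TP63 experiment and 180 in the BRDT experiment. In KYSE150, KRT15 had a mean of 176 RPKM in siCont cells and 58.9 in the BRDT-OE controls, where its range overlapped that of KRT17. KRT17 was at 52.3 and 28.5, KRT5 at 366 and 307, and TP63 at 9.07 and 20.7. These differences stand between experiments and were not tested, and the comparisons below were each made within 1 experiment.

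The targets were checked first. BRDT had normalised read counts (reads divided by a size factor) of 1017, 1043 and 1136 in KYSE180 siCont and 132, 147 and 198 in siBRDT libraries, and 241 and 242 against 55.0 and 46.6 in TE6. TP63 went from 2573 and 3035 to 794 and 925 in KYSE180 and from 2596 and 2785 to 133 and 112 in TE6 under siTP63, and from 695 and 729 to 170 and 114 in KYSE150. In BRDT-OE cells BRDT was at 15871 to 17542, against 6.58 to 16.0 in their controls. TP63 also fell under siBRDT, by 0.58 ± 0.07 (log2, SE) in KYSE180 (adjusted p = 8.8e-06) and by 1.15 ± 0.12 in TE6 (adjusted p = 2e-05).

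The first question was whether loss of BRDT changed these keratins in a line that expresses it. In KYSE180, siBRDT lowered 5 of the 8 genes, among them both members of the basal pair. KRT14 had normalised read counts of 10114, 9838 and 8457 in siCont and 4527, 4354 and 3960 in siBRDT libraries. KRT5, the partner chain, had 55508, 54782 and 48909 against 27107, 26400 and 24699. For both genes every siBRDT library lay below every siCont library. The share of all genes with such a gap was counted for KYSE150 siTP63 alone, so elsewhere a gap only describes the libraries shown.

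On the log2(value + 1) scale, which understates changes of low genes, KRT14 fell by 1.14 ± 0.08 (SE, adjusted p = 1.2e-08, limma) and KRT5 by 1.02 ± 0.07 (adjusted p = 2.2e-08). Among stress keratins, KRT16 fell from 134, 134 and 115 to 63.9, 61.4 and 48.7 (log2 difference -1.13 ± 0.15, adjusted p = 1.1e-05). KRT6A, the most abundant stress chain here, had 11722, 11697 and 11043 in siCont and 7869, 7626 and 7465 in siBRDT libraries (-0.59 ± 0.06, adjusted p = 9.3e-07). KRT17 fell less far, from 5727, 5186 and 4955 to 3688, 3786 and 3312 (-0.56 ± 0.07, adjusted p = 9.4e-06), and it sat at the limit of 0.5 without siCont replicate 1 (-0.498) or siBRDT replicate 3 (-0.499).

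The other 3 genes did not reach the call. KRT15, with 2846, 2622 and 2437 against 2165, 1907 and 1820, passed the adjusted p (0.00023) but its log2 difference of -0.42 ± 0.08 was under 0.5. KRT6C (82.4 to 91.9 against 68.1 to 79.2) differed by -0.24 (95% interval -0.53 to 0.05), and KRT6B, at 5.32 to 15.1 in all 6 libraries, by -0.07 (-0.91 to 0.77). Of 13589 genes tested in this comparison, 15.8% were called lower and 14.5% higher, where a call needs an adjusted p under 0.05 and a log2 difference of at least 0.5. The median log2 difference was -0.57 for the 8 keratins and -0.01 for all genes. In bulk RNA, fewer keratin-rich cells and less keratin mRNA per cell cannot be told apart.

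In TE6, siBRDT also lowered 5 of 8 genes, but KRT16 and KRT17 were not among them. KRT14 went from 3320 and 3110 in siCont to 1189 and 1134 in siBRDT libraries (-1.47 ± 0.12, adjusted p = 2.8e-06). KRT5 went from 15986 and 15150 to 4620 and 6657 (-1.49 ± 0.14, adjusted p = 7.7e-06), and KRT6A from 33627 and 33525 to 11399 and 16084 (-1.31 ± 0.13, adjusted p = 1.4e-05). The siBRDT libraries of KRT5 and KRT6A were further apart than those of KRT14, with siBRDT replicate 1 the lower for both. None overlapped siCont, and the share of all genes with such a gap was not counted.

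KRT15 fell from 17273 and 15753 to 9990 and 12255 (-0.58 ± 0.11, adjusted p = 0.00083), and without siBRDT replicate 1 the log2 difference was -0.429, under the limit. KRT6C, at 122 and 128 against 94.9 and 47.8, was called (-0.88 ± 0.29, adjusted p = 0.025), but the call rested on siBRDT replicate 2, without which the difference was -0.396 (adjusted p = 0.2), and it was lost as well without either siCont library (adjusted p = 0.12 and 0.16). KRT17, with 22867 and 20459 in siCont and 25654 and 25018 in siBRDT libraries, was the one abundant member whose siBRDT values all lay above siCont (log2 difference 0.23 ± 0.09, adjusted p = 0.061). How many of all genes lay above siCont in this way was not counted. KRT16 had 305 and 305 against 315 and 269, with overlapping groups (-0.07, 95% interval -0.40 to 0.26). KRT6B had 87.0 and 88.7 against 100 and 128 (0.36, -0.38 to 1.11). In this comparison 18.1% of 13333 genes were called lower and 15.6% higher, and the median log2 difference was -0.73 for the 8 keratins and -0.04 for all genes.

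Whether siBRDT acted differently in the 2 lines was tested as a difference of the log2 differences, TE6 minus KYSE180. It passed an adjusted p of 0.05 for 4 of the 8 genes, against 22.5% of 12612 genes that were lower and 19.4% that were higher in TE6. BRDT itself fell less in TE6 (0.52 ± 0.20, adjusted p = 0.047) and TP63 fell further (-0.57 ± 0.14, adjusted p = 0.0031). Their part in the keratin differences was not tested. KRT17 (0.78 ± 0.13, adjusted p = 0.00011) and KRT16 (1.06 ± 0.21, adjusted p = 0.00074) fell in KYSE180 and not in TE6. KRT6A fell further in TE6 (-0.72 ± 0.15, adjusted p = 0.00095). KRT5 did as well (-0.46 ± 0.16, adjusted p = 0.028), but its call was lost in 7 of 16 alternatives, and without TE6 siBRDT replicate 1 the difference was -0.201 (adjusted p = 0.19). The other libraries whose removal ended this call were both TE6 siCont replicates, KYSE180 siCont replicate 3 and KYSE180 siBRDT replicates 1 and 2 (adjusted p = 0.05 to 0.1). For KRT14 the difference was -0.32 (95% interval -0.60 to -0.05, adjusted p = 0.056), and it passed without TE6 siBRDT replicate 1, KYSE180 siCont replicate 1 or KYSE180 siBRDT replicate 3 (adjusted p = 0.033 to 0.046). For KRT6C the difference of -0.64 (-1.30 to 0.02) passed without TE6 siBRDT replicate 1 (-1.13, adjusted p = 0.0023), and for KRT15 (-0.15, -0.44 to 0.14) and KRT6B (0.43, -0.73 to 1.60) no difference was called.

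The next question was how the same genes responded to loss of TP63. In KYSE180 all 8 keratins were called lower under siTP63, KRT14 the most. KRT14 had 36757 and 30744 in siCont and 5564 and 4454 in siTP63 libraries (-2.76 ± 0.17, adjusted p = 2.6e-12). KRT5 had 67255 and 64637 against 36957 and 35825 (-0.86 ± 0.21, adjusted p = 0.00092), so that the 2 partners of the basal pair were reduced to unequal degrees. KRT15 went from 9269 and 7726 to 4786 and 3850 (-0.98 ± 0.16, adjusted p = 1e-05). The size of these falls depended on scaling. As RPM, KRT5 went from 3886 and 3902 to 3060 and 3122 and KRT15 from 536 and 466 to 396 and 335, which are smaller falls. After rescaling to equal upper quartiles, 7 keratins were called lower.

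Among the stress keratins of KYSE180, KRT6A went from 15581 and 14202 to 6108 and 5999 (-1.30 ± 0.16, adjusted p = 1.5e-07) and KRT17 from 16116 and 14399 to 7603 and 6271 (-1.14 ± 0.16, adjusted p = 1.9e-06). KRT16 went from 400 and 311 to 197 and 160 (-0.98 ± 0.17, adjusted p = 3.3e-05). KRT6B, at 55.1 and 43.1 in siCont, was at 12.3 and 9.53 under siTP63 (-2.07 ± 0.35, adjusted p = 1.9e-05). In all of these genes no siTP63 library reached the lower siCont library, but the share of all genes with such a gap was not counted. KRT6C, with 56.6 and 126 against 46.0 and 55.6, was called (-0.73 ± 0.29, adjusted p = 0.03), but without siCont replicate 2 the difference was -0.16 (adjusted p = 0.63), and the call was also lost without siTP63 replicate 1 (adjusted p = 0.17). Here 25.7% of 13924 genes were called lower and 23.6% higher, and the median log2 difference was -1.06 for the keratins and 0.00 for all genes.

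In TE6 siTP63 again lowered all 8 genes. KRT14 went from 3320 and 3110 to 77.6 and 88.8 (-5.26 ± 0.12, adjusted p = 2.5e-11). KRT5 went from 15986 and 15150 to 1513 and 1604 (-3.32 ± 0.14, adjusted p = 7.6e-09) and KRT15 from 17273 and 15753 to 6466 and 6318 (-1.37 ± 0.11, adjusted p = 8.9e-07). The basal genes thus followed the order KRT14, KRT5, KRT15 by size of their fall.

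KRT6A, which led the keratins of TE6 together with KRT17, went from 33627 and 33525 to 5086 and 5472 (-2.67 ± 0.13, adjusted p = 2.9e-08), and KRT17 from 22867 and 20459 to 6685 and 7256 (-1.63 ± 0.09, adjusted p = 8.3e-08). KRT16 went from 305 and 305 to 88.9 and 99.1 (-1.69 ± 0.15, adjusted p = 2.6e-06). KRT6C fell to 25.2 and 31.1 (-2.12 ± 0.29) and KRT6B to 17.9 and 47.3 (-1.56 ± 0.34), the latter with siTP63 libraries far from each other (-2.23 to -0.88 over all alternatives). In this comparison 20.6% of 13333 genes were called lower and 18.3% higher, with medians of -1.91 for the keratins and -0.01 for all genes.

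**Figure D2:**
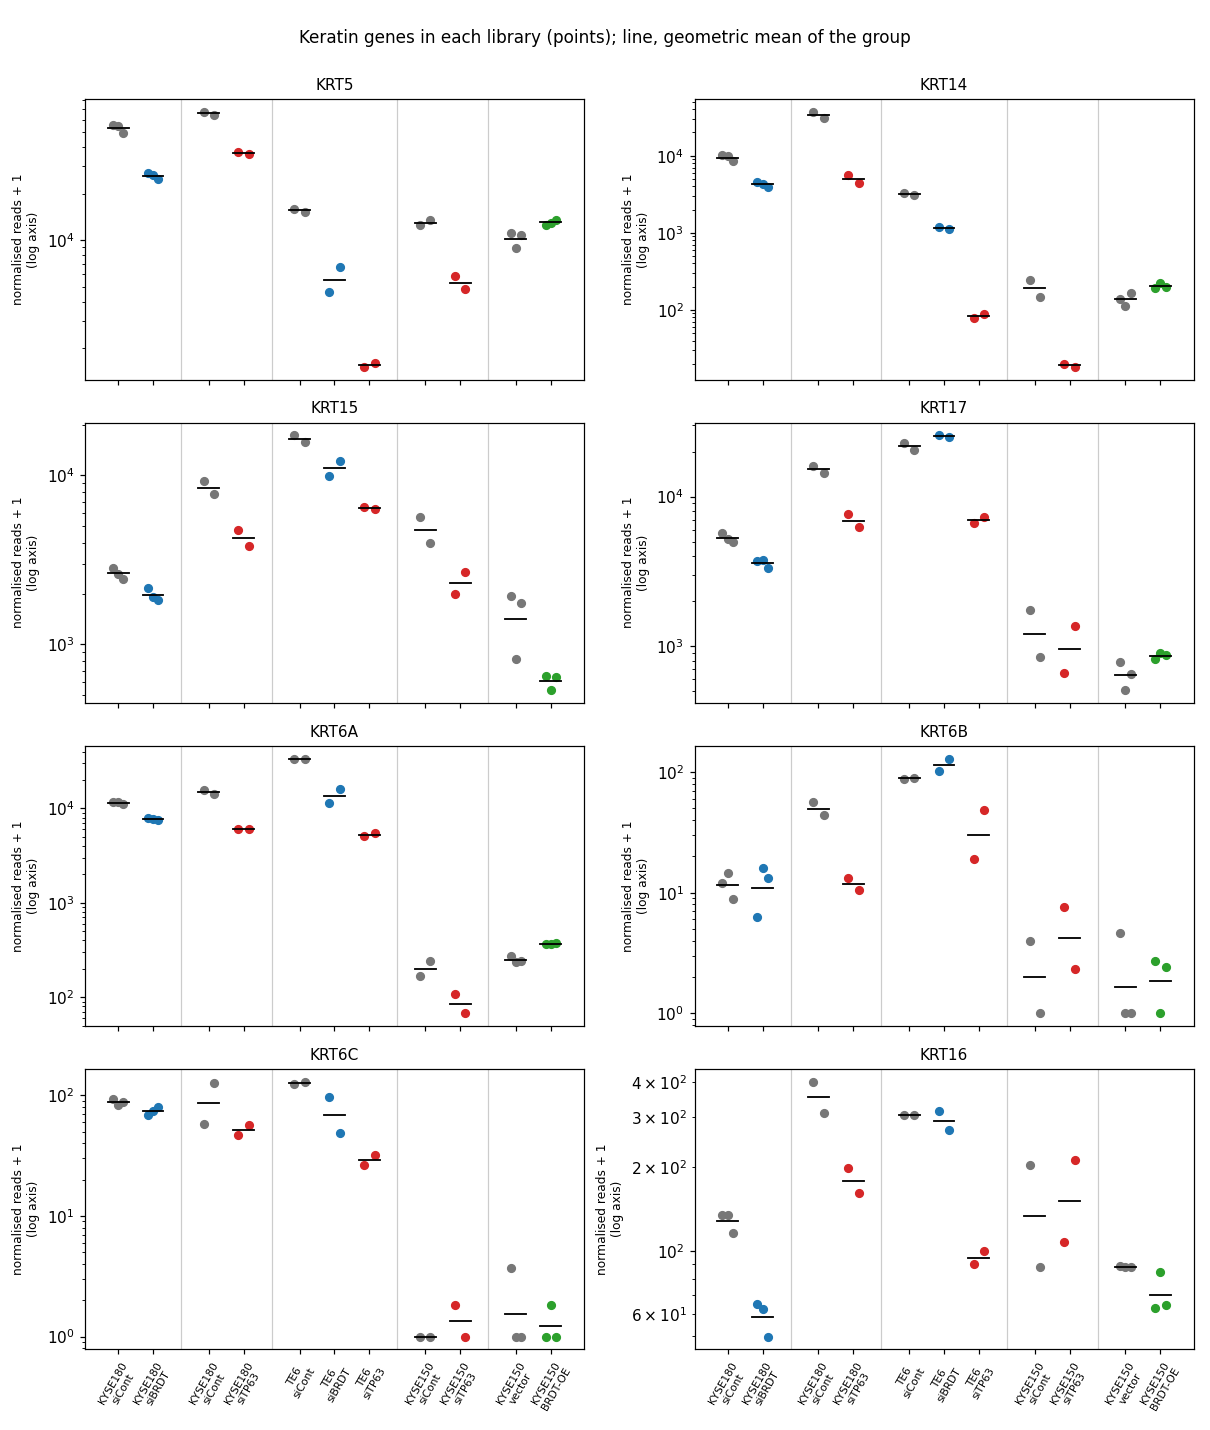
Normalised read count plus 1 (log axis) of each keratin gene in every library, with control cells in grey, siBRDT in blue, siTP63 in red and BRDT-OE in green, and grey lines between the 5 experiments. In TE6, KRT17 stays at 25018 or above in siBRDT libraries and is at 6685 and 7256 in siTP63 libraries, while KRT14 steps down from siCont to siBRDT to siTP63.

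Because both TE6 knockdowns share their 2 siCont libraries, siTP63 was also compared with siBRDT directly. All 8 keratins were lower under siTP63 (19.9% of 13333 genes were called lower and 19.3% higher, at an adjusted p under 0.05). The gap was widest for KRT14 (-3.79 ± 0.12, adjusted p = 8.6e-10), and it was of similar size for KRT17 (-1.86 ± 0.09, adjusted p = 4.7e-08) and KRT5 (-1.83 ± 0.14, adjusted p = 1.4e-06). It was smallest for KRT15 (-0.79 ± 0.11, adjusted p = 0.00011). For KRT6C (-1.24 ± 0.29, adjusted p = 0.005) it missed the threshold without siTP63 replicate 1 (-1.09, adjusted p = 0.055). TP63 itself was lower by 3.30 ± 0.12 in siTP63 than in siBRDT cells.

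Between lines, the siTP63 effect differed for 6 of the 8 genes, TE6 minus KYSE180, while 26.2% of 12780 genes had a lower and 28.8% a higher value in TE6. The differences were largest for KRT14 (-2.50 ± 0.18, adjusted p = 4.5e-08) and KRT5 (-2.46 ± 0.20, adjusted p = 1e-07), and KRT6A also fell further in TE6 (-1.37 ± 0.19, adjusted p = 1.1e-05). TP63 itself fell further in TE6 (-2.74 ± 0.19), and its part in the keratin differences was not tested. KRT6C (-1.39), KRT16 (-0.71) and KRT17 (-0.49) passed as well (adjusted p = 0.018, 0.018 and 0.022), but each lost the call in several of the 10 fits without a library, among them those without TE6 siTP63 replicate 1 (adjusted p = 0.061, 0.071 and 0.096). For KRT16 they also included those without TE6 siCont replicate 2, KYSE180 siCont replicate 2 or siTP63 replicate 1, and for KRT6C those without KYSE180 siCont replicate 1 (-0.819) or siTP63 replicate 2. For KRT17 they included TE6 siCont replicate 1, KYSE180 siCont replicate 2 and siTP63 replicate 1. For KRT15 (-0.39, 95% interval -0.79 to 0.01) and KRT6B (0.52, -0.51 to 1.54) no difference was called. That of KRT15 passed without KYSE180 siCont replicate 1 or siTP63 replicate 2 (adjusted p = 0.035 and 0.033) and after rescaling to equal upper quartiles (-0.564, adjusted p = 0.012). That of KRT6B hung on the TE6 siTP63 libraries, at 1.19 without replicate 1 (adjusted p = 0.027) and -0.16 without replicate 2.

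In KYSE150, a line that makes little KRT14, the spread between replicates limited the siTP63 comparison. TP63, the siRNA target, was itself not called (-2.34 ± 0.26, adjusted p = 0.082, limma). KRT14 had 244 and 146 in siCont and 19.1 and 17.3 in siTP63 libraries, a log2 difference of -3.31 ± 0.35 (adjusted p = 0.082). KRT5 had 12531 and 13423 against 5814 and 4791 (-1.30 ± 0.24, adjusted p = 0.11), KRT15 5702 and 4002 against 1994 and 2696 (-1.04 ± 0.28, adjusted p = 0.16) and KRT6A 165 and 240 against 107 and 66.5 (-1.23 ± 0.34, adjusted p = 0.17). In these 4 genes the siTP63 libraries lay below both siCont libraries, which held for 24.6% of the 12335 genes tested (24.3% lay above).

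KRT16 (202 and 87.2 against 107 and 210) and KRT17 (1751 and 839 against 663 and 1356) overlapped between the groups. By limma 0 of 6 keratins and 0 of 12335 genes were called (0% lower and 0% higher), while 4 keratins and 2194 genes had an unadjusted p under 0.05. edgeR called 0 keratins, and DESeq2 on the recovered reads called 3 keratins and 261 genes lower, KRT14 (adjusted p = 2.5e-09), KRT5 (0.00079) and KRT15 (0.029). Without 1 of the 4 libraries the log2 difference was -3.67 to -2.94 for KRT14, -1.44 to -1.16 for KRT5, -1.30 to -0.787 for KRT15 and -1.57 to -0.887 for KRT6A, and from below to above 0 for KRT16 (-0.425 to 0.778) and KRT17 (-0.884 to 0.177). These fits leave 1 group with a single library that is assumed to vary like the other group, so the calls they gave (KRT14 in all 4, KRT6A without siTP63 replicate 1) are no stronger evidence than the fit of all libraries. The median log2 difference was -1.13 for the 6 keratins and -0.01 for all genes. KRT6B and KRT6C had 0 to 8 reads per library in KYSE150 siRNA cells and were not tested.

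Against KYSE180, the siTP63 effect in KYSE150 differed for 0 of 6 keratins by limma at an adjusted p under 0.05. At that threshold 0.849% of 11891 genes were lower and 0.774% higher. At an unadjusted p under 0.05 it was 0 of 6 keratins and 3140 of the 11891 genes. The intervals were wide, from -1.35 to 0.25 for KRT14 and from -1.10 to 0.22 for KRT5, and without 1 library the differences were -0.917 to -0.183 and -0.579 to -0.3. Against TE6, TP63 itself fell less in KYSE150 (2.10 ± 0.28, adjusted p = 0.0038), and its part in the keratin differences was not tested. In that contrast 2 of 6 keratins passed, and both fell less in KYSE150 (1.66% of 11645 genes were lower and 2.2% higher). The difference was 2.02 ± 0.27 for KRT5 (adjusted p = 0.0045) and 1.95 ± 0.32 for KRT14 (adjusted p = 0.012). Without 1 library that of KRT5 was 1.88 to 2.16, and it passed each time. The difference of KRT14 missed the threshold without any single TE6 siCont or siTP63 library (1.86 to 2.05, adjusted p = 0.055 to 0.076). KRT6A (1.44, adjusted p = 0.053) passed without KYSE150 siCont replicate 2 or siTP63 replicate 2, KRT16 (1.87, adjusted p = 0.08) without siCont replicate 1 or either siTP63 replicate, and KRT17 (1.28, adjusted p = 0.16) without siTP63 replicate 1.

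The reverse experiment asked what added BRDT did in a line with little of it. In BRDT-OE cells KRT6A and KRT14 were called higher and KRT15 lower, so that these genes did not move together. KRT6A had 270, 238 and 241 in control and 365, 368 and 373 in BRDT-OE libraries (0.56 ± 0.09, adjusted p = 0.00063). KRT14 had 139, 112 and 167 against 189, 220 and 197 (0.55 ± 0.15, adjusted p = 0.011). Neither gene overlapped between the groups, though the share of all genes with such a gap was not counted.

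KRT15 had 1938, 816 and 1768 in control and 646, 536 and 644 in BRDT-OE libraries (-1.21 ± 0.26, adjusted p = 0.003), with control replicate 2 far below the other controls, yet above every BRDT-OE library. KRT5 (11115, 8917 and 10747 against 12555, 12956 and 13553) and KRT17 (781, 507 and 647 against 820, 897 and 870) were higher in every BRDT-OE library, with log2 differences of 0.35 ± 0.09 (adjusted p = 0.0087) and 0.44 ± 0.13 (adjusted p = 0.018) that stayed under 0.5. The share of all genes with such gaps was not counted for BRDT-OE cells. Without control replicate 1 KRT17 was called as well (0.59). KRT16 (86.6 to 87.6 against 61.9 to 83.7) differed by -0.33 (95% interval -0.68 to 0.02). Of 12765 genes 10.5% were called higher and 16% lower, and the median was 0.40 for the 6 keratins tested and 0.02 for all genes.

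The rises were small and depended on scaling. When libraries were rescaled to equal upper quartiles, which moved the median of all genes by -0.10, KRT6A was at 0.465 and KRT14 at 0.45, both under the limit, with 0 keratins then called higher. KRT14 was also under it without control replicate 2 (0.402) or BRDT-OE replicate 2 (0.485). KRT15 was called lower under all alternatives (-1.61 to -0.98). TP63 was at 1344 to 1675 in control and 1377 to 1458 in BRDT-OE libraries (log2 difference -0.11, 95% interval -0.30 to 0.09).

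**Figure D3:**
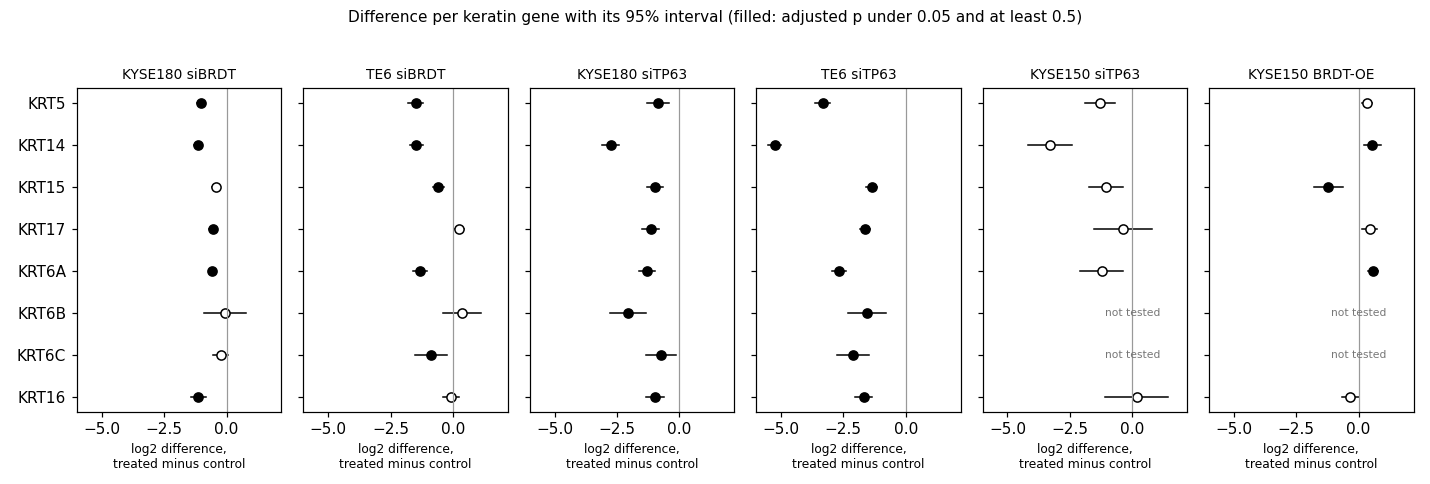
Log2 difference, treated minus control, of each keratin gene in the 6 comparisons, with its 95% interval, filled where the adjusted p was under 0.05 and the difference at least 0.5. Under siTP63 in TE6 KRT14 lies at -5.26 and KRT15 at -1.37, and in BRDT-OE cells KRT15 lies below 0 while KRT6A and KRT14 lie above it.

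The share of mRNA reads taken by the 8 keratins together ranged from 0.05571% to 0.8406% over all libraries. It was 0.691% to 0.7734% in KYSE180 siCont and 0.4002% to 0.4333% in siBRDT libraries, and 0.798% to 0.8406% against 0.4934% to 0.5073% for siTP63. In TE6 the share was 0.7873% to 0.8269% in siCont, 0.448% to 0.5007% in siBRDT and 0.1736% to 0.1864% in siTP63 libraries. KYSE150 had less, 0.1199% to 0.1266% in siCont and 0.05571% to 0.0649% in siTP63 libraries, while the BRDT-OE range of 0.09032% to 0.09689% overlapped that of its controls (0.07222% to 0.09669%). No knockdown group overlapped its control group in this share.

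The balance of the chains among these keratins moved differently by line. Per length, KRT5 exceeded KRT14 by 4.012 to 4.228 times in KYSE180 siCont and 4.377 to 4.559 times in siBRDT libraries. Under siTP63 this ratio went from 1.338 and 1.537 to 4.855 and 5.879 in KYSE180, from 3.52 and 3.561 to 14.25 and 13.21 in TE6, and from 37.62 and 67.18 to 222.4 and 202.4 in KYSE150. The siTP63 libraries thus had more KRT5 per KRT14 in all 3 lines. In TE6 siBRDT the ratio was 2.84 and 4.293, on either side of siCont.

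In TE6 the type II sum over the type I sum of the keratins followed here went the other way. This ratio went from 0.7964 and 0.8634 in siCont to 0.2995 and 0.4089 under siBRDT and 0.3498 and 0.3635 under siTP63. In KYSE180 it went from 0.9511 and 1.064 to 1.694 and 2.025 under siTP63, and under siBRDT from 2.558 to 2.687 down to 2.392 to 2.512. In KYSE150 it was 1.193 and 2.012 in siCont and 1.578 and 0.8327 in siTP63 libraries, which overlap. In BRDT-OE cells it was 5.388 to 5.609, above the controls at 2.85 to 4.388. These ratios are descriptions of single libraries and were not tested. They leave out other keratins, among them the type I chain KRT13, so they do not give the balance of all keratin chains. KRT13 had a mean normalised read count of 110498 in KYSE180 siCont libraries of the TP63 experiment and 40658 under siTP63.

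**Figure D4:**
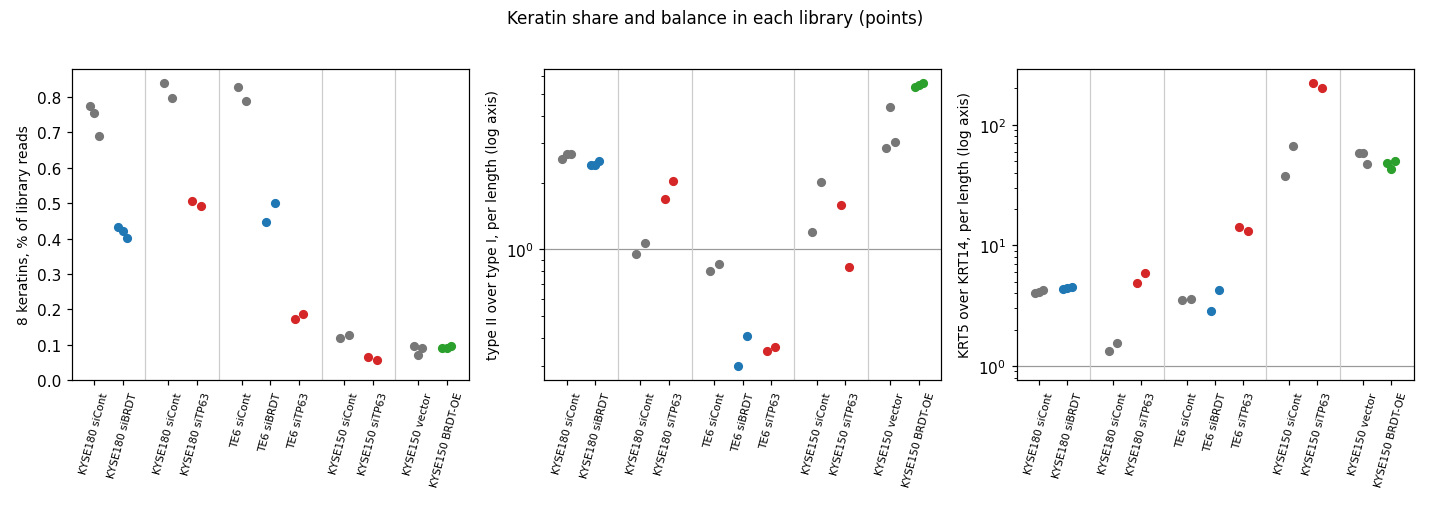
Left, share of library reads taken by the 8 keratins in percent. Middle, type II over type I chains among the 8 keratins, per length (log axis). Right, KRT5 over KRT14 per length (log axis). Each point is 1 library, coloured by condition. In the right panel the siTP63 libraries lie above their siCont libraries in all 3 lines, with the KYSE150 libraries at 202.4 and 222.4.

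Across the 26 libraries, as log2 values centred on the control mean of each experiment, KRT5 followed KRT6A (Pearson r = 0.96) and KRT14 (0.93) most closely. Among the keratins compared, KRT15 had the loosest relation to the others, at 0.46 with KRT6A and KRT17, 0.52 with KRT5 and 0.60 with KRT14. KRT16, KRT6B and KRT6C were not compared, as their mean was under 100 in at least 1 experiment. Of 8303 other genes with a mean of at least 100 in every experiment, the 3 most like KRT14 were TP63 (r = 0.967), MAGEA4 (0.964) and FCF1 (0.956). For KRT5 they were PVRL1 (0.965), IPO8 (0.962) and NCAPD2 (0.956), for KRT6A KIF4A (0.973), PRC1 (0.972) and PLAA (0.970), and for KRT17 GALNT14 (0.931), SPHK1 (0.879) and COL7A1 (0.877). The libraries share treatments and controls, so these values only describe likeness in this set, and TP63 was itself a target.

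A promoter sequence was found in the RefSeq table for 1 of the 8 genes, KRT5. It is shown because KRT5 fell with TP63 in KYSE180 and TE6, and p63 binds p53-family sites. The 250 bases before the start of its main transcript (chr12:52520394) are chr12:52520395-52520644 on the minus strand (GRCh38.p14). The gene span given above is longer because another GENCODE transcript starts at chr12:52520530, and its first exon covers 134 of these bases. The capitals mark matches of a loose p53-family spacing, CNNG followed by 6 free bases and CNNG.
KRT5: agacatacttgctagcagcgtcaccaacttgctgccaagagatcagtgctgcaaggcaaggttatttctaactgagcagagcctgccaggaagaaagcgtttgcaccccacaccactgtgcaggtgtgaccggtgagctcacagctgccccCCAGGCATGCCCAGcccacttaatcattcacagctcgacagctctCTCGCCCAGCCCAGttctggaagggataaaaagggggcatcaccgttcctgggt

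The matches lie at -99 to -86 and -54 to -41 from the start of the main transcript. The pattern is symmetric, so both strands give the same matches, and 68.6% of 35116 promoters of this length hold it. TATAAA (10.7% of promoters), TGANTCA of AP-1 (6.57%), GGGCGG of Sp1 (42.6%) and GCCNNNGGC of AP-2 (19.8%) had no match on either strand in this window.

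Of 31 other keratin genes, 8 to 13 were expressed enough to be tested, and they moved in both directions. Under siTP63 in KYSE180 5 of 13 were called lower and 7 higher (median 1.27), against 25.7% and 23.6% of all genes. KRT80, a type II chain of differentiating epithelia, rose from 119 ± 30 to 1220 ± 15.5 (mean ± SD, n = 2 each), and KRT13, a type I chain of the upper esophageal layers, fell from 110498 ± 16971 to 40658 ± 4851. Under siTP63 in TE6 1 of 12 was called lower, KRT13 (-1.67 ± 0.09), and 5 higher, against 20.6% and 18.3% of all genes. The largest rise was that of KRT4, the usual partner of KRT13, from 257 ± 36.3 to 1912 ± 74.4 (2.90 ± 0.16, adjusted p = 7.6e-08).

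Under siBRDT 5 of 12 other keratins were called higher in TE6, with KRT83, a hair keratin, going furthest from a low 4.36 ± 1.29 to 18.5 ± 5.88. In KYSE180 siBRDT 2 of 9 were called lower, among them KRT74 (21.8 ± 4.61 to 10.3 ± 2.06), and 1 higher, which was the simple-epithelial KRT7 (47.9 ± 0.991 to 100 ± 21.1, n = 3 each). In BRDT-OE cells KRT7 went the other way, from 176 ± 13.7 to 102 ± 4.6 (n = 3 each), and 2 of 9 genes of the list were called lower. The medians of this list in the siBRDT comparisons were 0.08 in KYSE180 and 0.49 in TE6, and -0.03 in BRDT-OE cells. Of all genes, 15.8% were called lower and 14.5% higher in KYSE180 siBRDT, and 18.1% and 15.6% in TE6 siBRDT. In BRDT-OE cells these shares were 16% and 10.5%.

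Genes of 10 proteins of the junctions that hold keratin filaments were counted in the same way. Under siBRDT 4 of 10 were called lower in KYSE180 and 3 of 10 in TE6, in both lines led by DST, which encodes the hemidesmosome linker BPAG1 (7496 ± 753 to 3980 ± 617 in KYSE180, 3283 ± 249 to 1233 ± 36.3 in TE6). Under siTP63, 2 of 10 were called lower and 2 higher in KYSE180, where PPL (periplakin) rose by 1.48 ± 0.15, and 3 lower and 2 higher in TE6, where DST again fell furthest (-1.54 ± 0.10). Of all genes, 15.8% were called lower and 14.5% higher in KYSE180 siBRDT, and 18.1% and 15.6% in TE6 siBRDT. For siTP63 these shares were 25.7% and 23.6% in KYSE180 and 20.6% and 18.3% in TE6. In BRDT-OE cells PLEC (plectin) was called higher (10036 ± 2287 to 25767 ± 1349) and PPL lower (-0.69 ± 0.10).

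The list of 15 transcription factor genes tied to basal or stress keratins includes TP63, the siRNA target, and its counts were not tested between lines. Under siTP63, 9 of 15 were called higher and 3 lower in KYSE180, and 3 higher and 7 lower in TE6. Of all genes, 23.6% were called higher and 25.7% lower in KYSE180, and 18.3% and 20.6% in TE6. FOSL1, an AP-1 subunit, fell most in KYSE180 (248 ± 27.2 to 56.2 ± 2.5) and TFAP2C, an AP-2 factor, rose most (224 ± 29.8 to 673 ± 54.3). Under siBRDT, 3 of 15 were called lower and 1 higher in KYSE180, where GRHL3 rose from 45.8 ± 6.46 to 138 ± 15.2, and 7 lower and 2 higher in TE6, where GLI2 fell furthest (206 ± 4.81 to 79.1 ± 24.9) and KLF4 rose (108 ± 9.56 to 303 ± 5.76). Of all genes, 15.8% were called lower and 14.5% higher in KYSE180 siBRDT, and 18.1% and 15.6% in TE6 siBRDT. In BRDT-OE cells FOSL1 rose (2417 ± 370 to 5830 ± 395) and JUNB fell (3504 ± 347 to 1437 ± 28.3). In KYSE150 siTP63 cells 0 genes of these 3 lists were called by limma, as for all genes there.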

How the data were processed

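mRNA libraries (TruSeq RNA kit, 26 libraries, 11 groups) were mapped to hg38. The labels name STAR 2.6.0, HTSeq 0.11.2 and DESeq2 1.24.0. The authors deposited normalised signal values in 5 tables, each holding HTSeq gene counts over the size factor of the library. Dividing by the value of 1 read gave whole numbers for 100% of values (within 0.01 read), which were used for RPKM, shares, edgeR 4.0.16 and DESeq2 1.42.0. Annotation, strand setting and treatment of multiple matches are not given in the sources used here.

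Each table was fitted alone with limma 3.58.1 (R 4.3.3, lmFit, eBayes with trend) on log2(value + 1), for genes with a mean of at least 10. The 3 TE6 groups shared 1 fit. P-values were adjusted over all genes (Benjamini-Hochberg). A call needed an adjusted p under 0.05 and a log2 difference of at least 0.5. The 5 contrasts of log2 differences used the adjusted p alone, and those between lines join separately normalised tables.

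The keratins, the gene lists and the tests were chosen with earlier results of these data known. Named are the 8 keratins, BRDT, TP63, the most extreme called genes of each list and the 3 genes most like KRT14, KRT5, KRT17 and KRT6A. The alternatives tried were no low-value filter, a pseudocount of 0.1, upper-quartile rescaling, a replicate block, edgeR, DESeq2, no fold limit, fits of only 2 TE6 groups and leaving out each library, plus a crossed pairing chosen after seeing the data. Fits were also run on simulated data with the same dispersion for every gene and library. Those runs do not cover the wide spread of the KYSE150 siRNA replicates, and no result here rests on them. Intervals of the differences come from the limma fits and reflect the spread between libraries. Limits for 0 reads cover counting error only, since the reads carry no molecular identifiers. Figures were drawn with matplotlib 3.10.9.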

Additional observations from a re-analysis of the deposited data

Results flagged for a closer look

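For 12 of the differences between lines, the test of the difference itself passed an adjusted p of 0.05. For siBRDT, TE6 minus KYSE180, these were KRT5 (-0.46), KRT6A (-0.72), KRT16 (1.06) and KRT17 (0.78). Of all genes, 22.5% were lower and 19.4% higher in that contrast. For siTP63, TE6 minus KYSE180, they were KRT5 (-2.46), KRT6A (-1.37), KRT6C (-1.39), KRT14 (-2.50), KRT16 (-0.71) and KRT17 (-0.49). There 26.2% of all genes were lower and 28.8% higher. For siTP63, KYSE150 minus TE6, they were KRT5 (2.02) and KRT14 (1.95), with 1.66% of all genes lower and 2.2% higher. No keratin passed in KYSE150 minus KYSE180, where 0.849% of all genes were lower and 0.774% higher. Among the listed genes, KRT16 and KRT17 were those for which TE6 stood above KYSE180 under siBRDT and below it under siTP63. Some fits without single libraries lost the call of KRT5 under siBRDT. The same held for KRT6C, KRT16 and KRT17 under siTP63, TE6 minus KYSE180, and for KRT14 in KYSE150 minus TE6. No group had 4 or more libraries, so single libraries were not tested as outliers.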

How the results depend on the processing

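Log2 differences of single keratins were recomputed in 1040 alternative fits for 80 results, of which 951 kept direction and side of the threshold, 40 lost a call, 34 gained one and 15 changed sign, and 48 results kept both throughout. None of the 15 had a call. Leaving out single libraries moved KRT6B under KYSE180 siBRDT from -0.266 to 0.329, KRT16 under TE6 siBRDT from -0.182 to 0.0467, and in KYSE150 siTP63 KRT16 from -0.425 to 0.778 and KRT17 from -0.884 to 0.177. In the siTP63 contrasts it moved KRT6B (TE6 minus KYSE180) from -0.16 to 1.19, KRT6A (KYSE150 minus KYSE180) from -0.269 to 0.411 and KRT15 (the same) from -0.319 to 0.192. Upper-quartile rescaling turned KRT6A in that contrast to -0.0972. It moved the median of all genes by 0.19 in KYSE180 siTP63, where 7 keratins were then called lower (2629 genes lower and 4529 higher, against 3577 and 3292).

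In KYSE150 siTP63, 0 keratins and 0 genes in all were called lower, against 1 and 18 with no filter, 1 and 48 with the replicate block, 3 and 261 with DESeq2, and 1 to 2 and 77 to 177 without 1 library. In BRDT-OE cells, 2 keratins and 1343 genes were called higher, against 0 and 889 after rescaling, 4 and 3326 with no fold limit, and 1 to 3 and 1216 to 1558 without 1 library. The contrast KYSE150 minus TE6 gave 2 keratins and 449 genes, against 1 to 4 and 64 to 3012 without 1 library. The cause was not tested.

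Replicate numbers did not pair the libraries: same-number deviations correlated by 0.00468 to 0.178 in KYSE180 siBRDT, 0.0147 to 0.0979 in BRDT-OE and -0.0836 to 0.0466 in the groups of 2 other than KYSE150. In KYSE150 siTP63 the correlation was -0.703, and crossed pairs, chosen after seeing the data, called 4 keratins and 1774 genes lower and 1626 higher. The block changed calls of keratins only for KRT14 in KYSE150 siTP63 and in the contrasts TE6 minus KYSE180 of KRT14 (siBRDT, adjusted p = 0.034) and KRT15 (siTP63, adjusted p = 0.049).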
